A study of Mus musculus with 18 samples.

Results

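Expression of 10 antioxidant genes under the control of, or belonging to, the Nrf2 pathway was followed across 3 genotypes of mouse peritoneal macrophages with or without lipopolysaccharide (LPS). The members were chosen by name: the regulators Nfe2l2 (the gene of the factor Nrf2) and Keap1, the glutathione genes Slc7a11, Gclc and Gclm, the thioredoxin and peroxiredoxin genes Txnrd1, Srxn1 and Prdx1, the quinone reductase Nqo1 and the superoxide dismutase Sod2. Of these 10 genes, 9 had values under their own gene number and passed the filter on low values, out of 13598 genes with a value and 9707 tested. The tenth, Sod2, is described separately by its position. Wild-type mice (TLR4-WT) were compared with TLR4-K730R and TLR4-K810R mice, in which CRISPR/Cas9 changed lysine 730 or lysine 810 of the Toll/interleukin-1 receptor (TIR) domain of the LPS receptor TLR4 to arginine, so that the residue can no longer be acetylated. All were C57BL/6 mice; per the study's methods the macrophages were drawn out by thioglycolate injection, so they are recruited inflammatory cells, and the mutation is carried by every cell of the animal. Each genotype had 3 mock-treated (control) libraries and 3 libraries given 100 ng/ml LPS for 6 h, 18 libraries in all, and the animals' age is not given in the sources used here.

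Nrf2 is a transcription factor that is held in the cytoplasm and marked for degradation by Keap1, an adaptor that senses electrophiles and oxidants. When Keap1 is modified, Nrf2 accumulates, enters the nucleus, pairs with a small Maf protein and binds antioxidant response elements in its target genes, which make glutathione, reduce thioredoxin and peroxiredoxins and detoxify quinones. Because Nrf2 is regulated chiefly as a protein, its mRNA need not follow its activity. In macrophages, LPS signals through TLR4 and induces some of the same genes, such as Sod2 and Slc7a11, by way of NF-κB and other factors.

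The letters around the start sites of 5 members are shown because these genes carry most of the variation described below, and because an antioxidant response element is the feature by which Nrf2 targets are usually recognised. The antioxidant response element core TGACNNNGC and the kappa-B motif were searched on both strands in windows of 300 bases, from 250 before to 50 after each start site (RefSeq, GRCm38.p6). Capitals mark a match. The core TGACNNNGC can overlap the AP-1 motif TGACTCA, and in the Prdx1 window it does.
Slc7a11 (chr3:50443564-50443863, minus strand, no match): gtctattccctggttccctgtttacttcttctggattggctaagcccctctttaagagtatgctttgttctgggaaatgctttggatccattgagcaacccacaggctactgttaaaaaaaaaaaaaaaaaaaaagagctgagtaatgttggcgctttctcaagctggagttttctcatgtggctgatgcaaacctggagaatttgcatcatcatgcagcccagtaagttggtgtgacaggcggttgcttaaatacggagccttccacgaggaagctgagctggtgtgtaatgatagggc
Prdx1 (chr4:116685349-116685648, plus strand, a kappa-B match and then a core match): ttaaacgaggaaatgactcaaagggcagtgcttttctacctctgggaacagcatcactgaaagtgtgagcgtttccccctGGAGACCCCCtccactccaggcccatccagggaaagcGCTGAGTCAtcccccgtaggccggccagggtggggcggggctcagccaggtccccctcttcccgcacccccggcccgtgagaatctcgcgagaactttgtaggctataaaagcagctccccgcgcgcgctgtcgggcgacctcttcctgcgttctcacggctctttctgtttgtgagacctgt
Txnrd1, the start at exon A (chr10:82858956-82859255, plus strand, a core match): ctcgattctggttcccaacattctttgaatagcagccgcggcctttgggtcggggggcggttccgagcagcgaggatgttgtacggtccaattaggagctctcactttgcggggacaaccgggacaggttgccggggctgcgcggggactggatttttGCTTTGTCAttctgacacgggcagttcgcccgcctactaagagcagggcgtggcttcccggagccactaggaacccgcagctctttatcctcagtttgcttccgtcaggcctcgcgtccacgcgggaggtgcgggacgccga
Srxn1 (chr2:152105274-152105573, plus strand, a core match): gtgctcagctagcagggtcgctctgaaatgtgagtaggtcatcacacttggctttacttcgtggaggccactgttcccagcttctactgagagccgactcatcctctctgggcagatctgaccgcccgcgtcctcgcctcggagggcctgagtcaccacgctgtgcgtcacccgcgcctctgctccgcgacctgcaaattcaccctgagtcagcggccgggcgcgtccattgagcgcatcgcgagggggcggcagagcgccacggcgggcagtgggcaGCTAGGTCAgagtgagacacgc
Gclm (chr3:122245307-122245606, plus strand, a core match): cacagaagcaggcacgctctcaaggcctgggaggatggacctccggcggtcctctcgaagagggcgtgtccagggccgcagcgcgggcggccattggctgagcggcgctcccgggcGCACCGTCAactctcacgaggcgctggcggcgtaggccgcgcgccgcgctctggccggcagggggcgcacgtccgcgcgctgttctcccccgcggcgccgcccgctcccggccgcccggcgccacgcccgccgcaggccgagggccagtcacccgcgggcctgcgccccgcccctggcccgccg
The tables held 11 windows for 9 of the 10 genes. A core match was found for 5 of these genes, the 4 above with a core match and Nfe2l2, while 12.4% of all 32851 windows of this length held one. A kappa-B match was found for 2 genes, Prdx1 and Sod2, against 8.46% of all windows. Slc7a11, Nqo1 and Keap1 had neither match in this window, which says only that these letters do not lie there.

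The values are FPKM (fragments scaled to transcript length and to library size), so levels can be set side by side between genes. Prdx1 had the highest mean of the 9 members in all 6 groups (767 to 2362 FPKM). In each mock group it was followed in the same order by Srxn1 (means of 90.9 to 166 FPKM), Txnrd1 (83.6 to 117), Nfe2l2 (64.2 to 68.2), Keap1 (26.7 to 32.3), Gclm (14.6 to 28.1), Gclc (12.8 to 15.5), Nqo1 (9.27 to 10.7) and Slc7a11 (3.90 to 6.45). Neighbours in this order overlapped in WT mock (Srxn1, Txnrd1 and Nfe2l2, and Keap1 and Gclm), in K730R mock (Gclm and Gclc) and in K810R mock (Srxn1 and Txnrd1, and Gclm and Gclc). Under LPS the order was another one: Slc7a11 stood at means of 62.2 FPKM in WT, 91.0 in K730R and 80.7 in K810R, above Nfe2l2 in both mutants, and in WT the mean of Txnrd1 (210.0) lay above that of Srxn1 (154). From the lowest to the highest library, Nfe2l2 spanned 1.33-fold and Keap1 1.74-fold, whereas Srxn1 spanned 9.43-fold, Gclm 12.2-fold and Slc7a11 34.4-fold. The spread of Slc7a11 lay between mock and LPS libraries, and that of Gclm and Srxn1 lay largely within groups.

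**Figure D1:**
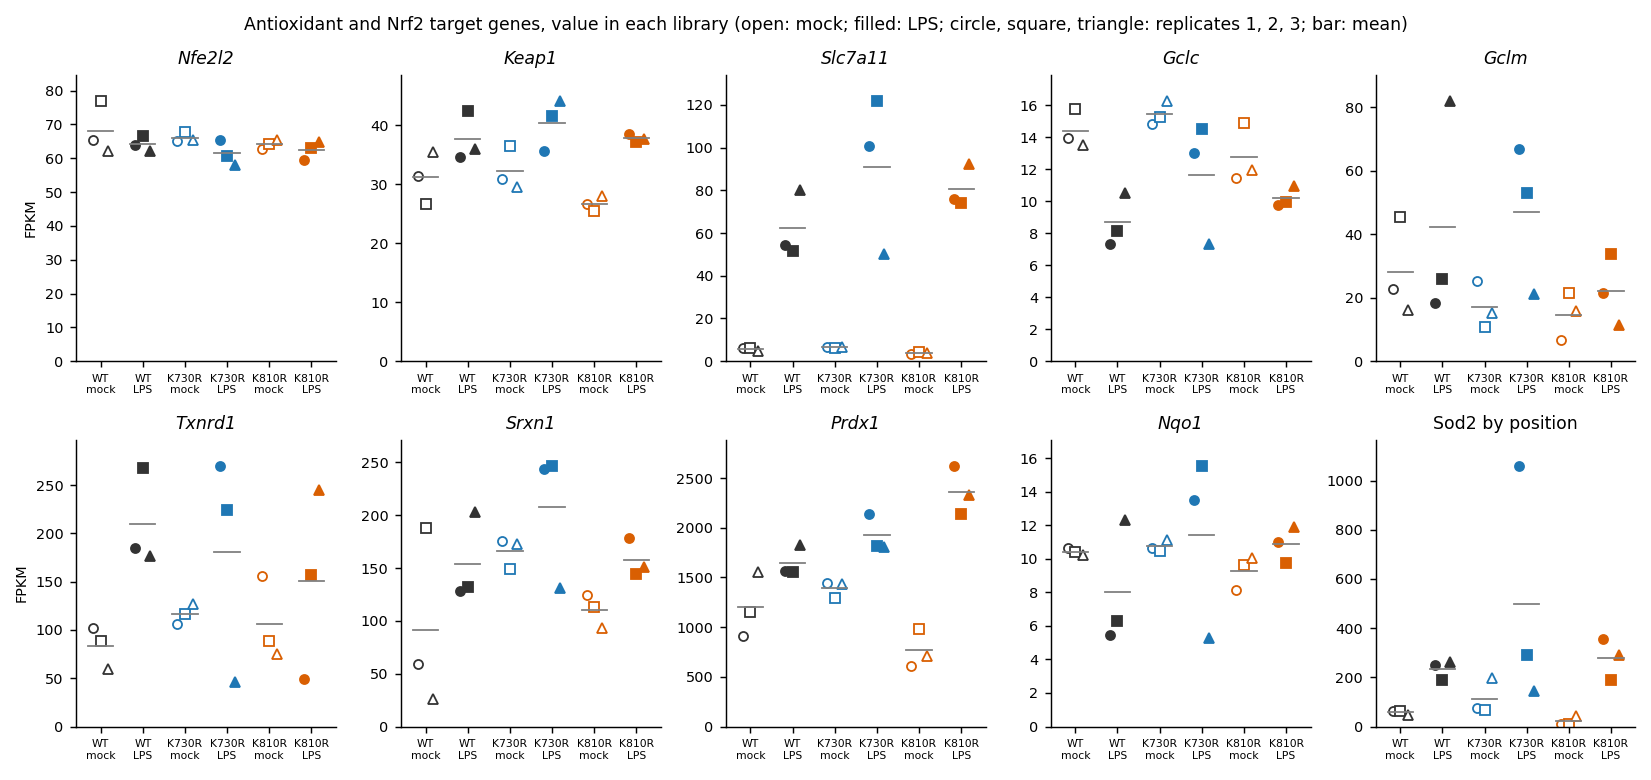
FPKM of each member in each library, by genotype and treatment (open symbols mock, filled symbols LPS, bars the mean of 3 libraries, every axis from 0). Slc7a11 separated every LPS from every mock library, Nfe2l2 spanned 1.33-fold over the 18 libraries, and in Slc7a11, Gclc, Gclm, Srxn1 and Nqo1 the triangles of WT LPS and K730R LPS lay apart from the other 2 libraries of their group.

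Sequencing depth is unknown, since the files hold no counts, and each library listed 80071 to 90401 transcript events. The sum of macrophage markers (6 of 7 with a value, among them Lyz2 and Cd68) was lower in every LPS library than in every mock library of the same genotype. It was 13419 to 14738 FPKM in mock and 6877 to 9237 in LPS libraries of WT, 13590 to 14709 and 7220 to 9632 in K730R, and 11587 to 13903 and 8852 to 9811 in K810R. The markers are not given singly, so a change of the sum need not hold for each of them. B and T cell markers summed to at most 3.66 and 0.958 FPKM in any library. Mesothelial and fibroblast markers summed to 31.2 to 267 FPKM. Mast cell markers summed to 4.70 to 5.25 FPKM in mock and 1.47 to 4.61 in LPS libraries of WT, and to at most 2.58 in K730R and 2.64 in K810R. Lung epithelial markers were at 1.25 to 34.0 FPKM in LPS libraries of K810R and at most 3.94 in any other group. Neutrophil markers (6 of 7 with a value) were higher in every K810R library, at 17.1 to 21.4 FPKM in mock and 16.4 to 19.2 in LPS libraries, than in any library of WT (10.3 to 12.5 and 9.04 to 13.6) or K730R (11.7 to 12.5 and 8.42 to 15.2). The 8 intestinal epithelial markers summed to 43.1 to 69.3 FPKM in mock and 49.7 to 57.5 in LPS libraries of K730R and to 53.9 to 113.3 in mock libraries of K810R, against 0.118 to 0.670 in mock and 0.0928 to 11.1 in LPS libraries of WT and 0.127 to 20.0 in LPS libraries of K810R. The part of these marker sums in the results below was not tested. In bulk RNA, fewer cells of a type and less RNA per cell cannot be told apart. LPS moved the median of all 9707 tested genes by -0.28 in WT, -0.36 in K730R and -0.26 in K810R on the log2(FPKM + 1) scale. Scaling the libraries by median ratios brought these medians to -0.02, -0.04 and -0.04, and changed the genes called higher and lower in WT from 1012 and 2316 to 1493 and 1380, in K730R from 905 and 2568 to 1483 and 1310, and in K810R from 881 and 1916 to 1194 and 1135.

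Before any comparison under LPS, 2 libraries have to be named. Across the 9707 tested genes, WT LPS replicate 3 correlated best with K730R LPS replicate 2 (Pearson r = 0.970 across genes, which are not independent) and with its own group at 0.962 and 0.966. K730R LPS replicate 3 correlated best with WT LPS replicate 2 (0.974) and with its own group at 0.963 and 0.966. The nearest library was from the same group for 15 of the 18 libraries, the exceptions being these 2 and WT LPS replicate 2, whose nearest was K730R LPS replicate 3. The same crossing was seen in single genes: Nos2, the inducible nitric oxide synthase, was at 406, 423 and 199 FPKM in WT LPS and at 144, 123 and 441 in K730R LPS. Among the members it was seen, in part or whole, in Slc7a11, Gclc, Nqo1, Srxn1 and Gclm, and not in Nfe2l2, Keap1 and Txnrd1. In Prdx1 K730R LPS replicate 3 (1807 FPKM) lay with its own replicate 2 (1818). On the intestinal markers, in contrast, K730R LPS replicate 3 (49.7 FPKM) sat with its own genotype and WT LPS replicate 3 was at 11.1 FPKM. The libraries were kept under their labels, and the LPS differences of the members in WT and K730R are also given without both of them, as are the members' differences between genotypes whose call that changed. That setting was chosen after the data were seen, and it removes the libraries farthest from their groups, so it narrows the spread by construction. In genes that cross, it also moves the WT and K730R means apart by construction.

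Nfe2l2 (mouse chromosome 2, 75675513 to 75704641, minus strand, GRCm38) showed no called difference in any comparison. In mock libraries it was at 65.3, 77.1 and 62.1 FPKM in WT, 65.3, 67.7 and 65.4 in K730R and 62.7, 64.3 and 65.5 in K810R. Under LPS it was at 64.0, 66.5 and 62.2 FPKM in WT, 65.5, 60.7 and 58.1 in K730R and 59.5, 63.0 and 64.9 in K810R. Mock and LPS libraries overlapped within each genotype, and WT mock replicate 2 was the highest library. The LPS difference was -0.08 ± 0.09 (log2(FPKM + 1), SE) in WT, -0.11 in K730R and -0.04 in K810R, with adjusted p of 0.508, 0.355 and 0.759 (limma, all 6 groups in 1 fit, Benjamini-Hochberg over 9707 genes). It was -0.06 in WT and -0.07 in K730R without the 2 named libraries. After median-ratio scaling the sign turned, to 0.25, 0.30 and 0.23, without a call. Its first exon and last exon carried the same FPKM in every library, so its level does not depend on which end was summed.

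Keap1 (chromosome 9, 21229730 to 21239361, minus strand), the repressor of Nrf2, was at 31.4, 26.7 and 35.4 FPKM in WT mock and at 34.6, 42.5 and 35.9 in WT LPS. In K730R it was at 31.0, 36.5 and 29.6 FPKM in mock and 35.6, 41.5 and 44.2 in LPS libraries. In K810R it was at 26.6, 25.4 and 27.9 FPKM in mock and 38.6, 37.2 and 37.6 in LPS libraries. The groups overlapped in WT and K730R, and in K810R every LPS library lay above every mock library. Keap1 rose in K810R (0.49 ± 0.12, adjusted p = 0.00462, limma), and the differences of 0.27 in WT and 0.31 in K730R did not pass the threshold of adjusted p below 0.01 (0.0835 and 0.0451). These differences were 0.30 and 0.25, also not called, without the 2 named libraries. The K810R call was lost in 5 of its 6 fits without 1 of its libraries, all but the fit without mock replicate 3, with adjusted p of 0.0128 to 0.0194. With median-ratio scaling Keap1 was called in WT (0.59, adjusted p = 0.00281) and K730R (0.71, adjusted p = 0.000646) too. The sum over first exons came from 4 alternative first exons, listed on average at 14.6, 10.3, 6.61 and 2.85 FPKM.

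Slc7a11 (chromosome 3, 49892526 to 50443614, minus strand), the light chain of the cystine/glutamate antiporter xCT that brings in cystine for glutathione, showed the largest LPS response of the 9 members in every genotype. It was at 6.15, 6.19 and 4.61 FPKM in WT mock and at 54.5, 51.7 and 80.2 in WT LPS. K730R libraries stood at 6.67, 5.97 and 6.72 FPKM in mock and at 101, 122 and 50.1 in LPS libraries. K810R libraries stood at 3.55, 4.53 and 3.63 FPKM in mock and at 75.7, 74.3 and 92.1 in LPS libraries. Every LPS library was above every mock library, and the mock libraries of K810R lay below those of WT without overlap, 20.8% of all tested genes being apart between these 2 groups. The group means rose 11.0-fold in WT, 14.1-fold in K730R and 20.7-fold in K810R. On the log2(FPKM + 1) scale, where the added 1 shrinks the difference of a gene at a few FPKM, the rise was 3.23 ± 0.25 in WT (adjusted p = 3.58e-08, limma), 3.53 in K730R (1.16e-08) and 4.06 in K810R (2.58e-09). With a pseudocount of 0.1 the differences were 3.42, 3.70 and 4.34, and without the 2 named libraries the rise was 3.03 in WT and 3.91 in K730R, both called.

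The mutants were not distinguished from WT in Slc7a11 with all libraries. The LPS response of K810R exceeded that of WT by 0.83 ± 0.35 (adjusted p = 0.324, limma). The LPS response of K730R exceeded that of WT by 0.30 ± 0.35 (adjusted p = 0.905). Under LPS, K730R was 0.48 ± 0.25 above WT (adjusted p = 0.686), and 0.22 to 0.85 above it with 1 library left out at a time. Without WT LPS replicate 3 and K730R LPS replicate 3, that difference was 1.05 (adjusted p = 0.00238) and the excess response of K810R was 1.02 (adjusted p = 0.0111). The genes most like Slc7a11 over the 18 libraries were the neutrophil chemokines Cxcl3 and Cxcl2 and the adhesion molecule Clmp, with Pearson r of 0.9976, 0.9945 and 0.9943 on the log2 scale, where the gap between mock and LPS libraries sets most of the correlation. Slc7a11 is listed by its last exons only, so its level rests on transcript ends. The main end was listed in all 18 libraries, at 3.53 to 100.5 FPKM. A further end, at 50430694 to 50430935, was listed in 9 of the 18 (0.923 to 32.8 FPKM) and added nothing in the others.

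Gclc and Gclm encode the catalytic and the modifier subunit of glutamate-cysteine ligase, which makes the first step of glutathione synthesis. Gclc (chromosome 9, 77754535 to 77794485, plus strand) was at 14.0, 15.8 and 13.5 FPKM in WT mock and at 7.35, 8.13 and 10.5 in WT LPS. The K730R libraries were at 14.8, 15.3 and 16.3 FPKM in mock and at 13.0, 14.5 and 7.35 in LPS libraries. The K810R libraries were at 11.5, 14.9 and 11.9 FPKM in mock and at 9.77, 9.95 and 10.9 in LPS libraries. In each genotype every LPS library lay below every mock library, the reverse of Slc7a11. Groups were apart, in one direction or the other, for 55.0%, 58.8% and 52.5% of all tested genes in WT, K730R and K810R. Gclc fell in WT (-0.68 ± 0.19, adjusted p = 0.00776, limma), and the differences of -0.43 in K730R and -0.29 in K810R were not called (adjusted p = 0.0726 and 0.243). The WT call was lost with median-ratio scaling (-0.38, adjusted p = 0.0965) and without any of 5 of the 6 WT libraries, all but LPS replicate 3 (adjusted p of 0.0153 to 0.0387). With that scaling the differences were -0.05 in K730R and -0.04 in K810R (adjusted p = 0.849 and 0.896, limma). Without the 2 named libraries the fall was -0.82 in WT (called) and -0.16 in K730R (adjusted p = 0.323), and under LPS K730R lay 0.76 above WT (adjusted p = 0.00620), against 0.35 (adjusted p = 0.686) with all libraries.

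Gclm (chromosome 3, 122245557 to 122270732, plus strand) was among the most variable members. It was at 22.6, 45.5 and 16.2 FPKM in WT mock and at 18.4, 25.9 and 82.0 in WT LPS. In K730R it was at 25.3, 10.8 and 15.3 FPKM in mock and at 66.9, 52.9 and 21.3 in LPS libraries. In K810R it was at 6.73, 21.5 and 15.7 FPKM in mock and at 21.6, 33.7 and 11.5 in LPS libraries. The groups overlapped in all 3 genotypes, and the highest library of all was WT LPS replicate 3. The LPS difference was 0.40 ± 0.59 in WT, 1.34 in K730R and 0.58 in K810R, with adjusted p of 0.606, 0.0731 and 0.457 (limma), and without the 2 named libraries it became -0.22 in WT and 1.82 in K730R (adjusted p = 0.762 and 0.0130). With 1 library left out at a time it ran from -0.22 to 0.83 in WT, 1.01 to 1.82 in K730R and 0.14 to 0.97 in K810R, so the sign in WT rested on LPS replicate 3. An internal exon listed in all libraries gave group means of 21.3 FPKM in WT mock, 32.4 in WT LPS, 17.0 in K730R mock, 35.9 in K730R LPS, 14.0 in K810R mock and 12.5 in K810R LPS, so that in K810R the LPS mean lay below the mock mean by this measure and above it by first exons. Gclm is therefore given without a direction in K810R.

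Txnrd1 (chromosome 10, 82833951 to 82897712, plus strand), the cytosolic thioredoxin reductase that returns thioredoxin to its reduced form with NADPH, was at 102, 88.5 and 60.1 FPKM in WT mock and at 185, 268 and 177 in WT LPS. K730R libraries stood at 106, 117 and 127 FPKM in mock and at 270, 225 and 46.1 in LPS libraries. K810R libraries stood at 156, 89.0 and 75.1 FPKM in mock and at 49.0, 157 and 245 in LPS libraries. The WT groups did not overlap, while in each mutant an LPS library, K730R replicate 3 and K810R replicate 1, lay below all mock libraries of its genotype. The LPS difference was 1.33 ± 0.59 in WT (adjusted p = 0.0744, limma), 0.28 in K730R (0.718) and 0.28 in K810R (0.729), none of them called. The mutants' values depended on single libraries: in K810R the difference was 0.94 without LPS replicate 1 (adjusted p = 0.205) and -0.21 without LPS replicate 3 (adjusted p = 0.828), and in K730R it was 1.08 without LPS replicate 3 (adjusted p = 0.0909) and -0.19 without LPS replicate 1 (adjusted p = 0.830). Txnrd1 is therefore given without a direction in the mutants. Without the 2 named libraries it was 1.44 in WT (adjusted p = 0.0322) and 1.08 in K730R (adjusted p = 0.102).

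Most Txnrd1 transcripts were assigned to 2 first exons, exon A at 82859179 to 82859300 and exon B at 82860301 to 82860630. Exon A took 15.8% to 99.1% of the gene's FPKM, and exon B took 0.808% to 84.1%. In WT mock, exon A held 63.8%, 24.8% and 97.4% of the gene, and in K810R LPS it held 59.0%, 60.7% and 99.1%. In the mock libraries of K730R the share was steadier, at 55.2%, 56.2% and 63.7%. The split between first exons thus ranged widely among libraries of the same group outside K730R mock, and no difference in start site use was tested. An internal exon gave nearly the same gene level as the sum of first exons (WT mock 85.6 against 83.6 FPKM, WT LPS 209.7 against 210.0), and 149.9 against 150.4 FPKM in K810R LPS.

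**Figure D2:**
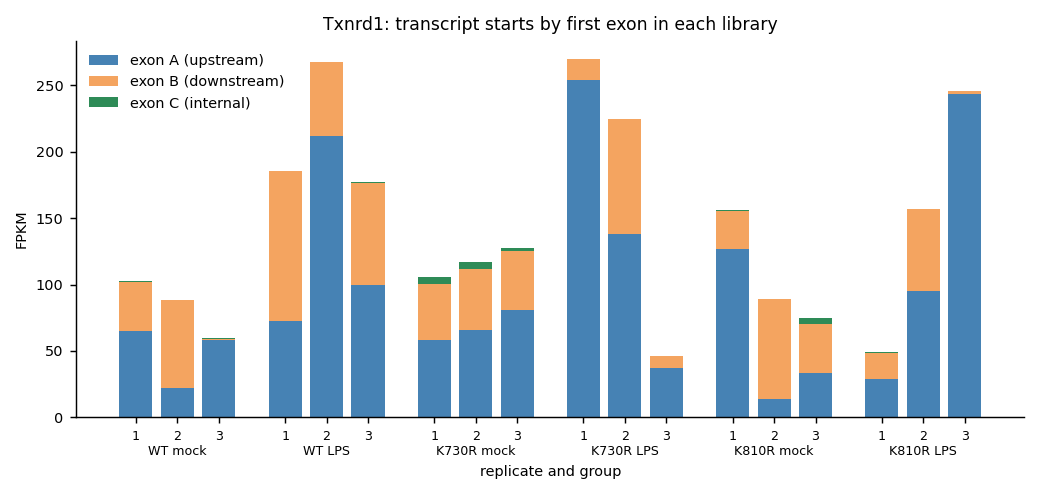
Txnrd1 FPKM in each library, stacked by the first exon to which the transcripts were assigned (bars from 0). The share of exon A ran from 15.8% to 99.1%, and the totals of K730R LPS replicate 3 and K810R LPS replicate 1 (46.1 and 49.0 FPKM) were the lowest.

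Srxn1 (chromosome 2, 152105516 to 152111376, plus strand), sulfiredoxin, which repairs over-oxidised peroxiredoxins, was at 59.0, 187.6 and 26.2 FPKM in WT mock and at 128, 132 and 203 in WT LPS. The K730R libraries were at 175, 149 and 173 FPKM in mock and at 244, 247 and 131 in LPS libraries. The K810R libraries were at 124, 113.5 and 93.6 FPKM in mock and at 178, 144 and 151 in LPS libraries. Only in K810R did the groups not overlap, and WT mock replicate 2 stood above the other mock WT libraries. The LPS difference was 1.17 ± 0.47 in WT (adjusted p = 0.0506, limma), 0.27 in K730R (0.659) and 0.51 in K810R (0.404). It was 0.96 in WT and 0.57 in K730R (adjusted p = 0.147 and 0.402) without the 2 named libraries. The WT value turned on which mock library was kept: it was 1.91 without mock replicate 2 (adjusted p = 0.000212) and 0.51 without mock replicate 3 (adjusted p = 0.294). The difference between K730R and WT mock libraries, 1.30 with all libraries (adjusted p = 0.465), was likewise 2.04 without WT mock replicate 2 (adjusted p = 0.00921) and 0.65 without WT mock replicate 3 (adjusted p = 0.821).

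Prdx1 (chromosome 4, 116685544 to 116700822, plus strand), an abundant cytosolic peroxiredoxin that reduces hydrogen peroxide, was at 915, 1150 and 1557 FPKM in WT mock and at 1563, 1556 and 1822 in WT LPS. In K730R it was at 1443, 1297 and 1433 FPKM in mock and at 2143, 1818 and 1807 in LPS libraries. In K810R it was at 612, 983 and 707 FPKM in mock and at 2622, 2137 and 2328 in LPS libraries. The groups were apart in both mutants and met in WT, where mock replicate 3 reached the LPS level. By an internal exon that replicate was at 1199 FPKM, the other WT mock libraries at 901 and 1144 and the WT LPS libraries at 1551 to 1817, so that by this measure the WT groups were apart too. Prdx1 rose in K810R (1.64 ± 0.19, adjusted p = 3.23e-06, limma), a 3.08-fold rise of the group mean, and the differences of 0.48 in WT and 0.46 in K730R were not called (adjusted p = 0.0463 and 0.0512). Leaving out the 2 named libraries gave 0.40 and 0.51 (adjusted p = 0.139 and 0.0714). With median-ratio scaling they were called (0.81, adjusted p = 0.00275, and 0.87, adjusted p = 0.00157), as was WT without mock replicate 3 (0.68, adjusted p = 0.00758).

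The K810R response of Prdx1 exceeded that of WT by 1.17 ± 0.26, with a raw p of 0.000479 and an adjusted p of 0.0620 (limma), so it was not called. Its mock level was lower in K810R than in WT by -0.65 ± 0.19 (adjusted p = 0.0762), and its LPS level was higher by 0.52 ± 0.19 (adjusted p = 0.130), every K810R LPS library lying above every WT LPS library, as in 25.3% of all tested genes in one direction or the other. K810R mock libraries also had higher mesothelial and fibroblast marker sums (111.0 to 267 FPKM) than the mock libraries of WT (31.2 to 48.2) and K730R (58.9 to 66.8), and the higher neutrophil marker sums given above. The part of both in the Prdx1 level was not tested. Without the 2 named libraries the excess response was 1.24 (adjusted p = 0.0298). First and last exons of Prdx1 gave nearly the same level (1550 and 1542 FPKM on average).

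Nqo1 (chromosome 8, 107388225 to 107403206, minus strand), the quinone reductase whose mRNA is often used as a readout of Nrf2, was in mock libraries at 10.6, 10.4 and 10.2 FPKM in WT, 10.6, 10.5 and 11.1 in K730R and 8.14, 9.64 and 10.03 in K810R. Every K810R mock library lay below every WT mock library, by a difference of -0.16 (adjusted p = 0.877, limma), 20.8% of all tested genes being apart between these groups. Under LPS it was at 5.44, 6.30 and 12.3 FPKM in WT, at 13.5, 15.5 and 5.28 in K730R and at 11.0, 9.77 and 11.9 in K810R. WT LPS replicate 3 lay with 2 of the K730R LPS libraries and K730R LPS replicate 3 with 2 of the WT LPS libraries. With all libraries no LPS difference was called: -0.42 ± 0.29 in WT, -0.04 in K730R and 0.21 in K810R, with adjusted p of 0.258, 0.929 and 0.595 (limma). Median-ratio scaling gave -0.12, 0.34 and 0.46, turning the sign in K730R, where leaving out 1 library gave -0.30 to 0.40. Without the 2 named libraries Nqo1 was called lower under LPS in WT (-0.74, adjusted p = 0.000185) and was at 0.40 in K730R (adjusted p = 0.0148). Under LPS it was then called higher than in WT in K730R (1.17, adjusted p = 0.000285) and K810R (0.79, adjusted p = 0.000944), against 0.42 and 0.47 with all libraries (adjusted p = 0.760 and 0.377). In the same setting the response of K730R exceeded that of WT by 1.13 (adjusted p = 0.00694), and the response of K810R exceeded that of WT by 0.95 (adjusted p = 0.00542). With all libraries those differences of responses were 0.38 ± 0.42 and 0.63 ± 0.42, with adjusted p of 0.897 and 0.548. The genes most like Nqo1 over the 18 libraries were Ipo13, Panx1 and Pgd (Pearson r of 0.907, 0.900 and 0.890).

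**Figure D3:**
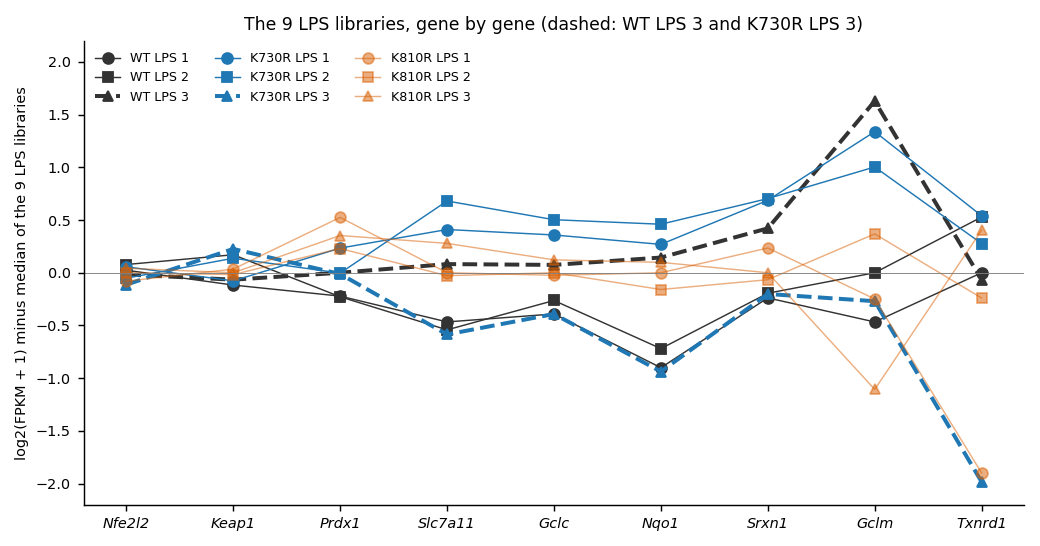
Difference of each LPS library from the median of the 9 LPS libraries, gene by gene on the log2(FPKM + 1) scale, with WT LPS replicate 3 and K730R LPS replicate 3 dashed. In Slc7a11, Gclc, Nqo1, Srxn1 and Gclm the dashed K730R line ran with WT LPS replicates 1 and 2, and the dashed WT line ran at or above 0 on the side of K730R LPS replicates 1 and 2.

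Sod2 (chromosome 17, 13006846 to 13040063, plus strand), the mitochondrial manganese superoxide dismutase, had no value under its gene number. The files list 211 events inside its span and on its strand under the number of Tcp10b, a gene at the same locus. Sod2's value was taken by position, as the larger of the summed transcript starts and the summed transcript ends in each library. This measure, chosen after the files were seen, gave 64.8, 65.1 and 45.0 FPKM in WT mock and 251, 189 and 263 in WT LPS. It gave 77.2, 67.0 and 195 FPKM in K730R mock and 1060, 293 and 145 in K730R LPS. In K810R it gave 11.7, 8.46 and 41.6 FPKM in mock and 355, 190 and 291 in LPS libraries. The LPS libraries lay above the mock libraries in WT and K810R and overlapped them in K730R.

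By this sum Sod2 rose under LPS in K810R (3.98 ± 0.63, adjusted p = 9.62e-05, limma), and the differences of 1.99 in WT and 1.82 in K730R were not called (adjusted p = 0.0161 and 0.0253). The K730R value was 1.03 without LPS replicate 1 (adjusted p = 0.149), the library at 1060 FPKM. Both were called with median-ratio scaling (2.32, adjusted p = 0.00575, and 2.22, adjusted p = 0.00788) and with library weights (1.93, adjusted p = 0.00878, and 2.29, adjusted p = 0.00351). Sod2 was at 1.90 in WT (adjusted p = 0.0267) without the 2 named libraries and was then called in K730R (2.46, adjusted p = 0.00723). The transcript ends alone at Sod2's position gave 3.69 in WT, 2.17 in K730R and 2.42 in K810R, none of them called (adjusted p = 0.0922, 0.313 and 0.283). The event of its second exon gave 2.18, 2.39 and 2.96 in WT, K730R and K810R, with adjusted p of 0.0891, 0.0628 and 0.0289. In K810R mock replicate 2 the second exon was listed at 93.6 FPKM and the larger sum of starts or ends was 8.46. In K730R mock replicate 2 they were 6.75 and 67.0. The estimate of Sod2 in single libraries therefore depends on the part of the transcript. By the larger sum every K810R mock library lay below every WT mock library, whereas the second exon was at 9.08, 93.6 and 37.6 FPKM in K810R mock and at 64.3, 64.1 and 41.7 in WT mock, where the groups overlapped through K810R mock replicate 2.

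The members called under LPS were counted beside the share of all tested genes called in the same comparison. In WT 2 of 9 were called, Slc7a11 higher and Gclc lower, beside 34.3% of all tested genes (10.4% higher and 23.9% lower). In K730R 1 of 9 was called, Slc7a11, beside 35.8% (9.32% higher and 26.5% lower). In K810R 3 of 9 were called, Slc7a11, Prdx1 and Keap1, all higher, beside 28.8% (9.08% higher and 19.7% lower). The median difference over the 9 members was 0.40 in WT, 0.28 in K730R and 0.49 in K810R, against the medians of all tested genes given above. These are the values of Gclm, Txnrd1 and Keap1 in that order, and those of Gclm and Txnrd1 depended on single libraries. Groups did not overlap for 3, 3 and 5 of the 9 members, beside 55.0%, 58.8% and 52.5% of all tested genes.

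**Figure D4:**
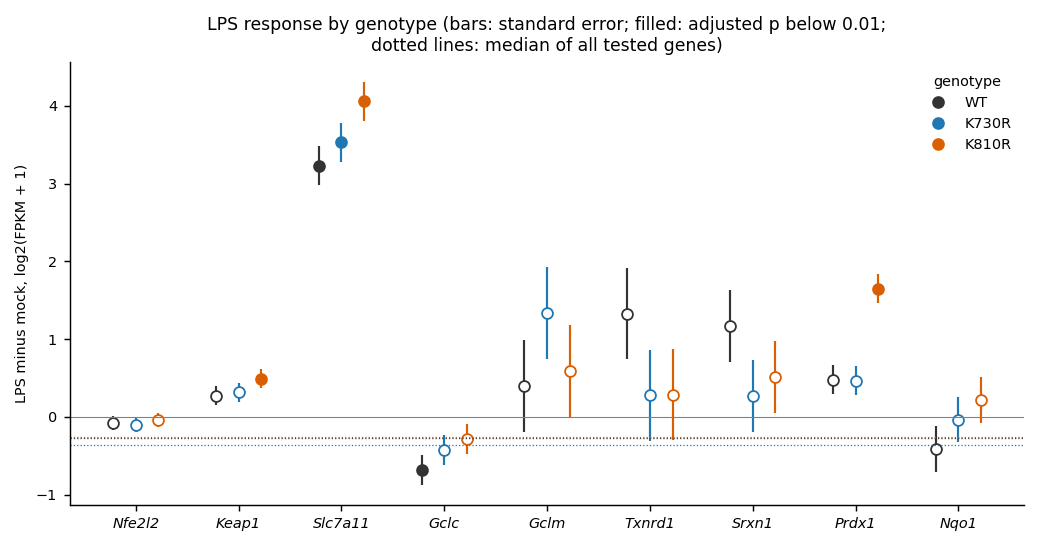
LPS minus mock difference of each member on the log2(FPKM + 1) scale, by genotype, with standard errors, filled points where adjusted p was below 0.01 and dotted lines at the median of all tested genes. Slc7a11 stood at 3.23 to 4.06 in all 3 genotypes and Prdx1 at 1.64 in K810R, while Gclc was the lowest member in all 3.

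Between genotypes no member was called by limma with all libraries. Mock K730R against mock WT gave 0 of 9 members, beside 0.268% of all tested genes, with 1 member, Srxn1, at an unadjusted p below 0.05, as were 7.70% of all tested genes. Mock K810R against mock WT gave 0 of 9, beside 1.58%, with 1 such member, Prdx1, beside 14.1% of all tested genes. Under LPS, K730R against WT gave 0 of 9, beside 0% of all tested genes, with 0 at an unadjusted p below 0.05 beside 7.69%, and K810R against WT gave 0 of 9, beside 0.134%, with 1, Prdx1, beside 21.8%. The difference in LPS response was called for 0 of 9 members in K730R, beside 0.0412%, with 0 at an unadjusted p below 0.05 beside 7.02%. In K810R it was called for 0 of 9, beside 0.124%, with 2, Prdx1 and Slc7a11, beside 13.2%. Groups did not overlap for 1 of 9 members between the mock libraries of K730R and WT and for 2 between those of K810R and WT, beside 16.4% and 20.8% of all tested genes. Under LPS they did not overlap for 0 and 1 members in the same order, beside 10.9% and 25.3%. Without the 2 named libraries, 3 members (Slc7a11, Gclc and Nqo1) were called between K730R and WT under LPS and 161 of all tested genes, and 1 (Nqo1) between K810R and WT with 577 of all genes. The genotype comparisons share the WT libraries.

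Of 69 further genes of the oxidant pathways in 9 lists, 62 were tested. LPS called 10 of them higher and 19 lower in WT, beside 10.4% and 23.9% of all tested genes. It called 13 higher and 20 lower in K730R, beside 9.32% and 26.5%, and 18 higher and 14 lower in K810R, beside 9.08% and 19.7%. Median-ratio scaling changed these counts to 18 and 13 in WT, 19 and 13 in K730R and 22 and 11 in K810R, and it turned the sign of Txnip, called lower in K730R, from -0.38 to 0.02. They were 10 and 22 in WT and 12 and 21 in K730R without the 2 named libraries, with 1 of the 29 and 1 of the 33 genes called before no longer called. Leaving out 1 library at a time cost at least once the call of 6 of 29 genes in WT, 7 of 33 in K730R and 9 of 32 in K810R, and turned the sign of 0 of them. The counts of each list that follow are to be read against these shares, and with so few genes in a list nothing is called particular to it. Among 10 tested partners and turnover factors of Nrf2, 1 was called in WT, Bach1, the repressor that competes with Nrf2 at antioxidant response elements, which fell, at -1.40 in WT, -1.65 in K730R and -1.33 in K810R on the log2 scale used above. The small Maf gene Maff rose by 0.84 in K730R and 1.15 in K810R. In WT it was at 0.65 (adjusted p = 0.0279, limma), at 0.37 without LPS replicate 3 (adjusted p = 0.152) and called with median-ratio scaling (0.92, adjusted p = 0.00229). The K730R call of Maff was lost in 4 of its 6 fits without 1 library. In K810R the autophagy receptor Sqstm1 rose by 0.90, as it did in all 3 genotypes with median-ratio scaling. Nfe2l1, a factor related to Nrf2, was called in K810R at 0.98, of which mock replicate 3 (14.7 FPKM, against 39.5 and 39.9 in the other mock libraries) carried much: without it the difference was 0.52 (adjusted p = 0.010007) and the call was lost, as it was without any 1 of the LPS libraries.

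Of 12 tested genes of glutathione use, 3 rose and 6 fell in WT. Glrx, glutaredoxin, rose by 2.77 in WT, 2.82 in K730R and 3.05 in K810R, and glutathione reductase Gsr and Slc3a2, the heavy chain that pairs with Slc7a11, rose in all 3 genotypes as well. Gpx1, the abundant glutathione peroxidase, fell in all 3, at -1.82, -1.59 and -1.24 in the same order. The counts were 3 higher and 6 lower in K730R and 3 higher and 5 lower in K810R. The glutathione transferase Gsta4 was the only list gene called between a mutant and WT with all libraries (mock K810R, 1.38, adjusted p = 0.00639), at 1.17, 1.97 and 3.12 FPKM in K810R mock against 0.502 in WT mock replicate 1. The gene was not listed in the other WT mock libraries and was set to 0 there, which need not be a low level, so the call rests on missing values. The call was lost in 4 of the 6 fits without 1 of these libraries (1.15 to 1.39, adjusted p of 0.0191 to 0.0378).

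Of 10 thioredoxin and peroxiredoxin genes, 2 rose and 4 fell in WT, 1 rose and 5 fell in K730R, and 3 rose and 2 fell in K810R. Prdx5 rose by 1.81 in WT, 1.90 in K730R and 2.58 in K810R, and the mitochondrial thioredoxin reductase Txnrd2 fell (-1.70, -1.25 and -1.36). Among 5 tested NADPH suppliers 2 fell in WT, 2 in K730R and 1 in K810R. Idh1, the cytosolic isocitrate dehydrogenase, fell (-2.37, -2.35 and -1.93), and the pentose phosphate enzyme Taldo1 fell in WT (-0.90) and K730R (-0.94), calls that were lost with median-ratio scaling (-0.57 and -0.53) and in 4 of 6 fits without 1 library in each. Pgd, a pentose phosphate enzyme and known Nrf2 target, was at 350, 372 and 564 FPKM in WT LPS and at 594, 685 and 388 in K730R LPS, the crossing already seen in Nqo1.

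Of 10 genes of haem, iron and detoxification, 2 rose and 4 fell in WT, 3 rose and 4 fell in K730R, and 4 rose and 3 fell in K810R. Hmox1, haem oxygenase, rose by 1.19, 1.33 and 1.81, whereas the carbonyl reductase Cbr1 fell (-1.71, -1.48 and -1.43), as did the biliverdin reductase Blvra (-1.39, -1.43 and -1.37). Of 3 genes of superoxide and peroxide removal, Sod1, the cytosolic dismutase, fell (-0.92, -0.98 and -0.79) and the extracellular Sod3 rose by 0.96, 0.65 and 0.58, Sod3 being listed at no more than 1.54 FPKM in any library and its calls in the mutants being lost in 3 and 5 of 6 fits without 1 library. With median-ratio scaling the differences of Sod1 were smaller and still called (-0.59, -0.57 and -0.52). Catalase, Cat, was at 37.2, 38.5 and 64.0 FPKM in WT LPS and at 69.0, 81.0 and 34.4 in K730R LPS.

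Of 6 tested genes of oxidant production, 1 rose and 1 fell in WT, 3 rose and 1 fell in K730R, and 2 rose and 1 fell in K810R. Nos2, listed at no more than 1.15 FPKM in any mock library and set to 0 where not listed (replicates 1 and 2 of WT mock and of K810R mock), rose by 8.06, 6.82 and 5.78 (8.41 in WT and 6.25 in K730R without the 2 named libraries), and Ncf1, the p47 subunit of the phagocyte oxidase, fell (-1.28, -1.64 and -0.84), in K810R not with median-ratio scaling (-0.57, adjusted p = 0.0233). Acod1, which makes the Keap1-modifying metabolite itaconate, rose by 4.98, 4.29 and 4.83. Among 5 tested ATF4 targets, the gene of the stress factor Atf4 itself rose in K810R by 0.62. This was the only call of the list in the 3 LPS comparisons with all libraries and without median-ratio scaling, and it was lost in 4 of 6 fits without 1 library. In WT Trib3 was at -0.57 and Asns at -0.43 (adjusted p = 0.0768 and 0.252, limma). The value of Asns came from WT LPS replicate 2, at 0.543 FPKM against 3.45 and 3.54 in the other LPS libraries, and without it the difference was 0.09 (adjusted p = 0.708).

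Between K730R and WT under LPS, 0 of 62 list genes were called by limma with all libraries (6 at an unadjusted p below 0.05, beside 7.69% of all tested genes), and 3 without the 2 named libraries: Pgd (0.82), the exporter Abcc1 (0.86) and Cat (0.96), all higher in K730R. Between K810R and WT under LPS, 0 of 62 were called with all libraries (17 at an unadjusted p below 0.05, beside 21.8% of all tested genes) and 5 without the 2: Slc3a2 (0.74), Pgd (0.60) and Idh1 (0.85) higher, and Nos2 (-2.55) and Acod1 (-1.14) lower. These 2 sets rest on 2 WT LPS libraries. Their counts are to be read against the all-gene calls of the same setting given above, and nothing in them is called particular to the lists.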

How the data were processed

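RNA-seq of mouse peritoneal macrophages was analysed from 18 libraries in 6 groups of 3, grouped by the genotype and treatment in the labels. The authors deposited transcript-event tables with FPKM values and no counts; the aligner and assembler are not given in the sources used here. The submitters' processing notes name build hg18, a human build, while 92.8% of the event rows overlap the mouse gene they name in GENCODE M21 (GRCm38). A gene's value was the larger of its summed transcript-start and transcript-end FPKM, using events on its strand and inside its span; this dropped 5.98% of that FPKM, and a missing gene was set to 0. Genes at 1 FPKM or more in at least 3 libraries (9707) were fitted on log2(FPKM + 1) with limma 3.58.1 in R 4.3.3 (eBayes with trend, all 6 groups), with Benjamini-Hochberg adjustment over 9707 genes, and called at an adjusted p below 0.01. Tables were made with Python 3.11.15 and pandas 2.3.3.

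The members and gene lists were chosen with earlier results of these data known, so they are not independent support. Members are all named; of each list the 2 largest WT LPS differences and any gene called between a mutant and WT are named, with other members of a list named after their values were seen. On simulated data 58% of genes changed by 1 on the log2 scale and 93% of those changed by 2 were recovered in the comparison of WT LPS with WT mock, and 34% and 77% in the difference of LPS responses between K730R and WT. Each simulation changed 200 of 9707 genes, far fewer than were called under LPS here. Its noise was independent and normal, with no library lying apart, so these rates need not hold for these data. The labels do not say that replicates came from separate animals, so p-values measure the spread between these libraries, which may be technical. Without counts no counting interval can be given. Alternatives were another pseudocount (0.1), no filter, median-ratio scaling, starts or ends only, all events, library weights, a replicate block and each library left out.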

Additional observations from a re-analysis of the deposited data

Results flagged for a closer look

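Sod2 gave a signal outside the main measurement. Its events are listed under the number of another gene, Tcp10b, and so enter no comparison of the 9 members with values. In WT and K810R every LPS library stood above every mock library of the genotype, while in K730R they overlapped, and the differences in WT and K730R (1.99 and 1.82, adjusted p = 0.0161 and 0.0253, limma) were not called. In K810R the difference between LPS and mock libraries was 3.98 on the log2(FPKM + 1) scale for the larger sum of transcript starts or ends (adjusted p = 9.62e-05, limma). The second exon gave 2.96 (adjusted p = 0.0289) and the transcript ends alone gave 2.42 (adjusted p = 0.283), neither of them called, and which part of the transcript gives the truer level was not tested.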

How the results depend on the processing

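Over 90 pairs of a member and a comparison and all alternatives, 1360 of 1395 values kept direction (where called) and side of the threshold, 20 gained a call and 15 lost one, and none that was called changed sign. Most of these values were called in neither fit, and a turned sign in a value not called counts as kept. All the lost calls fell on Gclc in WT, Keap1 in K810R and Sod2 in K810R, each LPS against mock. With median-ratio scaling the members called under LPS were Slc7a11, Prdx1 and Keap1, all higher, in all 3 genotypes, and Gclc was no longer called in WT. Beside these, 1493, 1483 and 1194 of all 9707 tested genes were called higher in WT, K730R and K810R. With transcript starts only, in which Slc7a11 has no value, members called were 0 in K730R and 1 in WT. In WT LPS against mock 1 member remained called with no filter, since Gclc went to an adjusted p of 0.0118. Without both WT LPS replicate 3 and K730R LPS replicate 3, chosen after the data were seen, members called were 3 between K730R and WT under LPS, 1 between K810R and WT under LPS, and 1 in each difference of LPS responses. Leaving out 1 library at a time gave 1 to 2 members in WT LPS against mock (1 without WT LPS replicate 1, WT LPS replicate 2 or WT mock replicate 1), 0 to 1 in mock K730R against mock WT (1, Srxn1, without WT mock replicate 2), and 2 to 3 in K810R LPS against mock. The cause of these shifts was not tested.

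Same-numbered replicates did not deviate together: over 45 pairs the correlations ran from -0.32 to 0.10, with 0 above 0.1, so the numbers are not treated as pairs. With a replicate block 1 member was called in WT LPS against mock, Gclc being at an adjusted p of 0.0109, and it changed no other call of a member. The block moved all-gene calls from 26 to 11 (mock K730R against mock WT), from 13 to 3 (K810R against WT under LPS) and from 12 to 6 (difference of LPS responses, K810R).

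All-gene calls moved by more than 1.5 times elsewhere as follows. Library weights gave 61 against 26 (mock K730R), 1 against 0 (K730R under LPS), 366 against 13 (K810R under LPS) and 37 against 12 (LPS responses, K810R). No filter and starts only gave 8 each against 13 (K810R under LPS), and ends only gave 2 against 4 (LPS responses, K730R). Without the 2 libraries the counts were 161 against 0, 577 against 13, 30 against 4 and 114 against 12. Leaving out 1 library gave 11 to 16 against 26 (mock K730R), 50 to 129 against 153 (mock K810R), 0 to 2 against 0 (K730R under LPS), 1 to 283 against 13 (K810R under LPS, 283 without WT LPS replicate 3) and 6 to 13 against 12 (LPS responses, K810R). Depth is unknown, so how far it limits these calls cannot be given.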
